A study of Mus musculus with 4 samples.

Results

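Values were examined for 9 mouse genes of cholesterol synthesis and its feedback control, Hmgcs1, Mvk, Mvd, Idi1, Fdps, Fdft1, Sqle, Lss and Insig1, in primary mouse hepatocytes from liver. The members are every row of the deposited tables whose Ensembl gene identifier belongs to these symbols in GENCODE M21 (GRCm38). Of the 9 genes, 8 had at least 1 row, and together they had 14 of the 37363 rows, which cover 19284 gene identifiers. Mvd had no row and is only named below. A row is called a model here. The 4 samples were 2 controls and 2 treated with non-essential amino acids (NEAA), which cells of an animal can synthesise and need not take up. The study's title names proline, gluconeogenesis and mRNA held back in paraspeckles, and its design asks how NEAA affect long non-coding RNA. The labels give no strain, age, dose or duration, and do not say whether the samples of a group came from separate animals or cultures. The spread behind each p-value is therefore that between the deposited samples, and it may be purely technical.

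Cholesterol is built from acetyl-CoA through mevalonate, isoprenoid diphosphates, squalene and lanosterol, and the liver is a major site of its synthesis. The genes are switched on together by the transcription factor SREBP2, which leaves the endoplasmic reticulum (ER) with its escort SCAP when sterols are scarce. Insig1 encodes an ER protein that keeps SCAP and SREBP in place when sterols are plentiful. Insig1 is itself a target of SREBP, which closes a feedback loop.

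The members' models were higher in the NEAA samples, with a single exception near 0. The mean was higher in NEAA for 13 of the 14 models, and both NEAA samples lay above both controls for 11 of them. Of the 25076 rows above 0 in any sample, 48.9% had a higher mean in NEAA and 21.8% had both NEAA samples above both controls, and of all 37363 rows 32.8% and 14.6% did. Insig1 differed most of the tested models in its ratio of group means, at 6.52, and the model of Hmgcs1 and 1 of the 2 Fdps models also rose. Summed over the models of a gene, Mvk and Lss rose as well, while Sqle varied too much between samples of a group to pass. Idi1 and Fdft1 were below the level filter of a mean of 1 FPKM over the 4 samples. The sums of Insig1, Mvk and Lss and both Fdps models had control means under 1 FPKM and passed that filter through their NEAA values. Without a level filter, limma called only the sums of Insig1 and Hmgcs1 among the members. FPKM are fragments scaled to transcript length and to the size of the library, so values of different genes are on a scale per length.

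**Figure D1:**
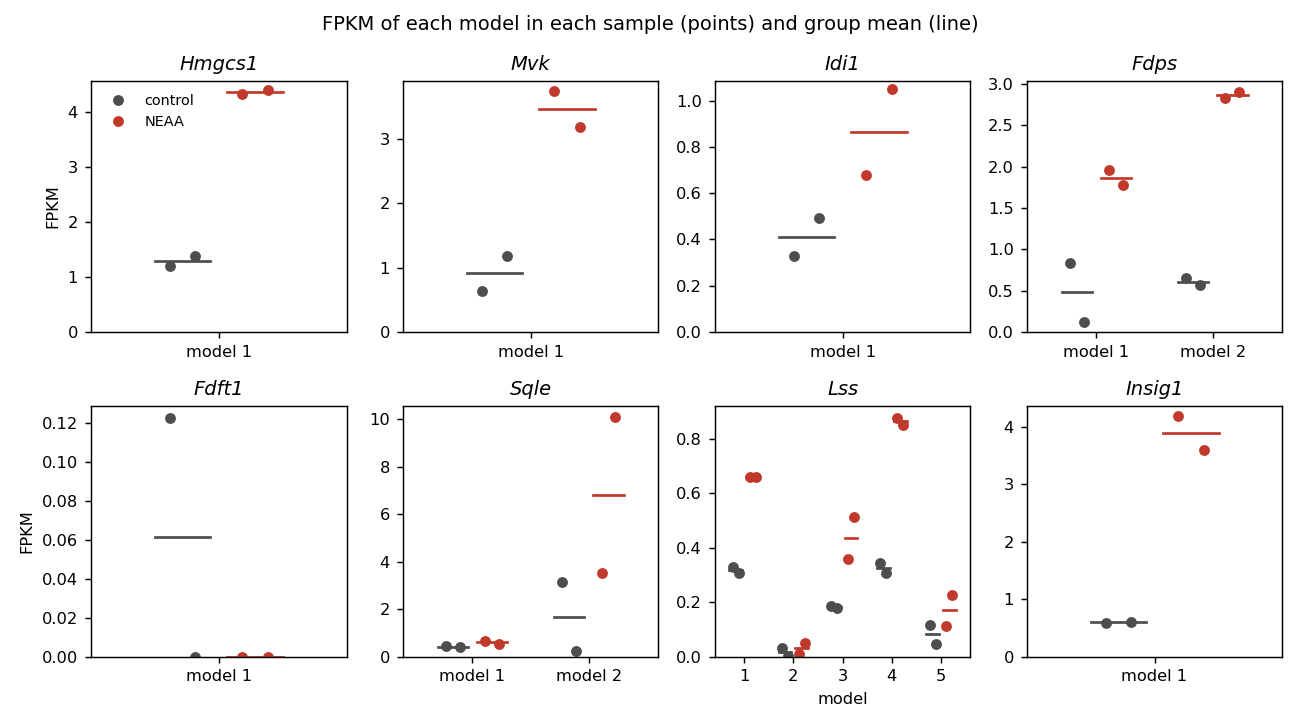
FPKM of each model (y axis, own scale per panel) in the 2 control samples (grey points) and the 2 NEAA samples (red points), with the group mean as a line. The red points of Hmgcs1, Mvk, Fdps and Insig1 lie above all grey points of the same model, while those of Sqle model 2 are spread from 3.54 to 10.1 FPKM.

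What a model stands for bears on every value. The 8 genes with rows had the same number of rows as GENCODE M21 has retained-intron transcripts of them: 1 each for Hmgcs1, Mvk, Idi1, Fdft1 and Insig1, 2 each for Fdps and Sqle, and 5 for Lss. Mvd, without a row, has 0 such transcripts among 2. Low values also fell in steps. In lncRNA genes with a single row and a single annotated transcript, value times length clustered at whole multiples of a fixed number, the worth of 1 fragment. Within 0.02 fragments, 900 of 7471 values above 0 lay at 1, 2 or 3 fragments, against 180 midway between whole numbers. For protein-coding genes with 1 row and 1 retained-intron transcript, 271 of 11238 values lay at such steps when the length of that transcript was used and 97 lay midway. With the length of the longest coding transcript the counts were 39 and 38. Steps thus appeared with the retained-intron length and not with the coding length, and a value below is not to be read as the level of the spliced mRNA. The step sizes correspond to about 25300000 and 27900000 fragments in the controls and to about 26500000 and 25200000 in the NEAA samples.

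These transcripts keep part or all of an intron beside coding sequence. Reads from the coding part cannot be told from those of the mRNA. Some of their bases lie outside the exons of the main coding transcript, in its introns or beyond its ends. Such bases made up 54.3% of the annotated Hmgcs1-204, 33.0% of Mvk-204, 54.2% of Idi1-202, 63.6% of Fdft1-203 and 52.3% of Insig1-202. For Fdps they made up 81.5% of Fdps-205 and 54.8% of Fdps-207. For Sqle they made up 81.0% of Sqle-203 and 51.4% of Sqle-204, and for Lss from 11.5% to 56.5%. In Mvk-204 intron 2 gave 679 of the 786 such bases. The files do not say which row of Fdps, Sqle or Lss is which transcript.

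**Figure D2:**
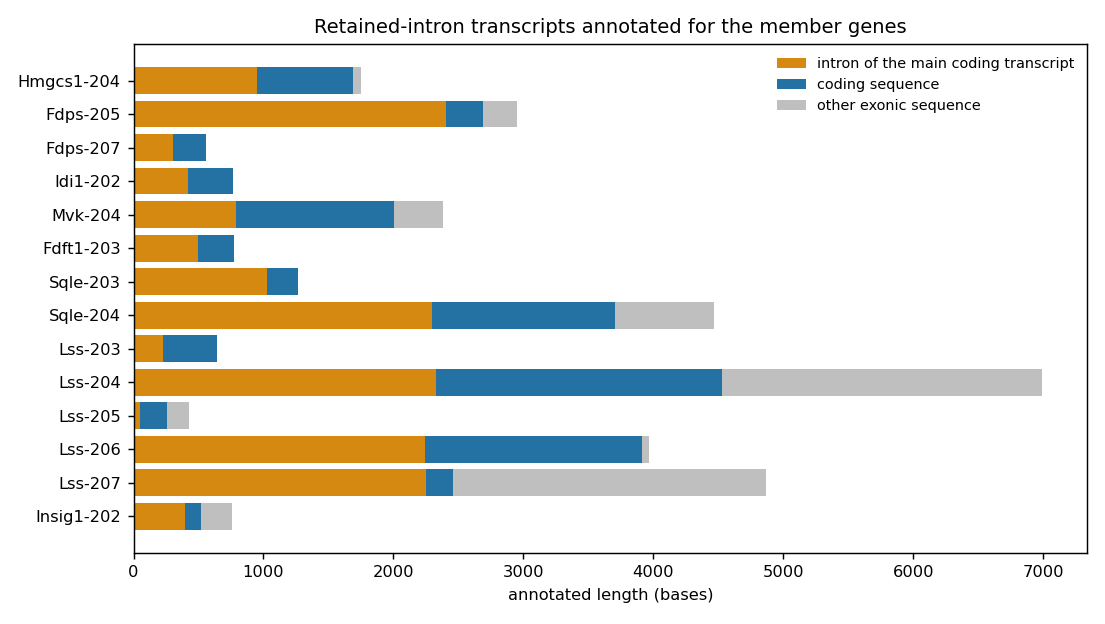
Annotated length in bases (x axis) of the 14 retained-intron transcripts of the member genes (y axis). Colours mark bases outside the exons of the main coding transcript (orange, labelled intron), coding sequence (blue) and other exonic sequence (grey). A few orange bases can lie beyond the ends of the main coding transcript. The orange bases range from 49 in Lss-205 to 2406 in Fdps-205.

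A donor splice site that such transcripts run through is shown for each of 5 genes, because it marks where an RNA of this kind parts from the mRNA. Each line holds 10 exon bases in lower case and the first 20 intron bases in capitals, from the GENCODE M21 transcript sequences (GRCm38). The sites belong to intron 5 of Hmgcs1 (chr13:119701231-119701260, plus strand), intron 2 of Mvk (chr5:114445470-114445499, plus strand), intron 2 of Fdps (chr3:89100901-89100930, minus strand), intron 9 of Sqle (chr15:59326657-59326686, plus strand) and intron 4 of Lss (chr10:76535658-76535687, plus strand).
Hmgcs1-204, intron 5: tggcagaaagGTGGGTTCTCCTTTAGCCAG
Mvk-204, intron 2: ccatggcaagGTAAAAAGTCCCCAGGGAGC
Fdps-205, intron 2: aggagcctcgGTGAGTGTGGTTGGGGTGTG
Sqle-203 and Sqle-204, intron 9: gctacagatgGTAAGTATAGATAGTTTTAA
Lss-203 and Lss-204, intron 4: gctggggcttGTGAGTATGCTTAACAGCAG
For Fdps and Lss, whose transcripts run through further donor sites, only 1 site is shown. All 5 introns shown begin with GT, the usual donor dinucleotide. The whole of Mvk intron 2 (679 bases), Fdps intron 2 (89 bases) and, in Lss-204, Lss intron 4 (576 bases) lies in the transcript. Hmgcs1-204 ends 946 bases into the 1294 bases of intron 5. Insig1-202 starts inside intron 3 and holds no donor site.

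Hmgcs1 encodes HMG-CoA synthase, which makes the HMG-CoA that is reduced to mevalonate. Its gene lies on chromosome 13 (119690379 to 119708260, plus strand). Its model measured 1.20 and 1.38 FPKM in the controls and 4.31 and 4.40 in the NEAA samples. The groups did not overlap, and the 2 samples of each group lay close together, at 1.29 ± 0.129 and 4.36 ± 0.0584 FPKM (SD, n = 2). The rise was 1.23 on the log2(FPKM + 1) scale (SE 0.12, adjusted p = 0.0346 by limma over 6064 models), a scale that understates changes of low values. Taken as Hmgcs1-204, of 1747 bases, the values correspond to about 52.7 and 67.1 fragments in the controls and 200 and 194 in NEAA. An annotated antisense lncRNA, Gm48342, overlaps this transcript on the other strand, and its own model measured from 0.0115 to 0.141 FPKM. The strand setting of the authors' counting is not given in the sources used here.

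Mvk encodes mevalonate kinase, which puts the first phosphate on mevalonate, and lies on chromosome 5 (114444269 to 114460591, plus strand). Its model measured 0.642 and 1.18 FPKM in the controls and 3.74 and 3.18 in NEAA. Both NEAA samples were above both controls, but the controls were far from each other, at 0.912 ± 0.382 FPKM (SD, n = 2). The log2 difference was 1.23 (SE 0.19), and it did not pass among the models (limma adjusted p = 0.0627). As a gene sum, which for Mvk is the same row tested among 4700 genes, it rose (limma adjusted p = 0.0321). The control mean of Mvk lay below the level filter of 1 FPKM, which it passed through its NEAA values. Without a level filter the sum did not pass (limma adjusted p = 0.0648). The call for Mvk therefore depends on which features are fitted and adjusted together. Its unadjusted limma p was 0.00304 among models and 0.00173 among gene sums. The estimated fragments were 38.6 and 78.4 in the controls and 236 and 191 in NEAA.

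Idi1 encodes isopentenyl diphosphate isomerase, which makes the isoprene unit that starts chain growth, and lies on chromosome 13 (8885501 to 8892451, plus strand). Its model measured 0.327 and 0.494 FPKM in the controls and 0.680 and 1.05 in NEAA, so the groups did not overlap. With a mean of 0.637 FPKM over the 4 samples it was not tested. About 6.35 and 10.6 fragments stood behind the controls and 13.9 and 20.3 behind the NEAA samples, so counting error is large.

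Fdps encodes farnesyl diphosphate synthase, which joins isoprene units into farnesyl diphosphate, the branch point to sterols and other isoprenoids. The gene lies on chromosome 3 (89093588 to 89101959, minus strand). Model 2, the second Fdps row in the files, measured 0.651 and 0.571 FPKM in the controls and 2.83 and 2.90 in NEAA. It rose by 1.26 on the log2 scale (SE 0.11, adjusted p = 0.0313 by limma), and its ratio of group means was 4.69. Both Fdps models had control means under 1 FPKM and passed the level filter through their NEAA values. Without a level filter model 2 did not pass (limma adjusted p = 0.095). Model 1 measured 0.841 and 0.127 FPKM against 1.96 and 1.78, with the groups apart but the controls far from each other, and did not pass (log2 difference 0.99, limma adjusted p = 0.138). Without control 2 its log2 difference was 0.64. The sum of both models went from 1.10 ± 0.562 to 4.73 ± 0.0821 FPKM (SD, n = 2) and rose (log2 fold change 1.48, SE 0.22, limma adjusted p = 0.0297 over 4700 gene sums). Another annotated protein-coding gene, Gm43738, covers 7512 bases of Fdps on the same strand, so their reads could be shared.

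Fdft1 encodes squalene synthase, which joins farnesyl diphosphate units into squalene, the first step given over to sterols. It lies on chromosome 14 (63145150 to 63179578, minus strand). Its model was listed at 0.123 and 0 FPKM in the controls and at 0 in both NEAA samples, about 2.40 fragments in control 1. No fold is given for it. The gene Ctsb overlaps it by 774 bases on the other strand.

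Sqle encodes squalene epoxidase, an oxygen-requiring and rate-limiting step after squalene, and lies on chromosome 15 (59315077 to 59331192, plus strand). Model 2 measured 3.14 and 0.244 FPKM in the controls and 3.54 and 10.1 in NEAA. Both NEAA values were above both controls, yet NEAA 1 exceeded control 1 by little, and the spread within each group was large, with SDs of 2.05 and 4.63 FPKM. The log2 difference was 1.64 (SE 0.77, limma adjusted p = 0.274). Leaving out 1 sample gave log2 differences of 2.51 without control 1, 0.78 without control 2, 2.29 without NEAA 1 and 1.00 without NEAA 2. Model 1 was lower and steadier, at 0.450 and 0.393 FPKM against 0.657 and 0.549, below the level filter. The sum of both models was 2.11 ± 2.09 FPKM in control and 7.42 ± 4.55 in NEAA (SD, n = 2) and did not pass (limma adjusted p = 0.194).

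Lss encodes lanosterol synthase, which folds epoxidised squalene into the first sterol, and lies on chromosome 10 (76531588 to 76557138, plus strand). All of its 5 models were below the level filter. Models 1, 3 and 4 had both NEAA samples above both controls, at 0.330 and 0.308 against 0.658 and 0.658 FPKM for model 1 and 0.343 and 0.308 against 0.877 and 0.852 for model 4. Models 2 and 5 overlapped between groups. The sum of the 5 models measured 1.01 and 0.848 FPKM in the controls and 2.02 and 2.30 in NEAA. The sum rose by 0.71 on the log2 scale (SE 0.13, adjusted p = 0.0445 by limma over gene sums), the smallest change of the 6 tested sums. It had a control mean of 0.927 FPKM and passed the level filter through its NEAA values. Without a level filter it did not pass (limma adjusted p = 0.0848). The antisense lncRNA 4930483K19Rik overlaps Lss, and its own model measured at most 0.0900 FPKM.

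Insig1, the ER retention factor, lies on chromosome 5 (28071363 to 28078662, plus strand). Its model measured 0.586 and 0.605 FPKM in the controls and 4.18 and 3.59 in NEAA. The controls were nearly equal and the NEAA samples stood well apart from them. The rise was 1.61 on the log2 scale (SE 0.13), with a limma adjusted p of 0.0299 over models and 0.0107 over gene sums. Insig1 had a control mean of 0.596 FPKM and passed the level filter through its NEAA values. Without a level filter the limma adjusted p was 0.0872 over models and 0.0345 over gene sums. Taken as Insig1-202, of 757 bases, it rests on about 11.2 and 12.8 fragments in the controls and 84.0 and 68.4 in NEAA. No other annotated gene overlaps Insig1, Mvk or Sqle.

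**Figure D3:**
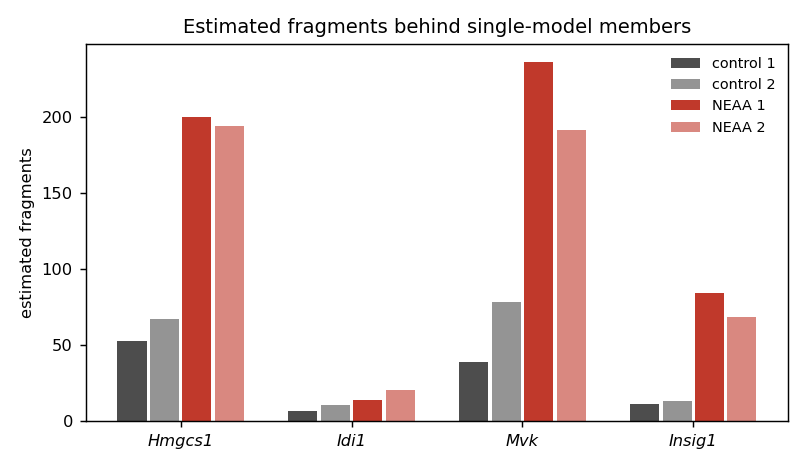
Estimated number of fragments (y axis) behind the model of Hmgcs1, Idi1, Mvk and Insig1 in each sample, from FPKM, the length of the only annotated retained-intron transcript and the worth of 1 fragment in that library. The controls of Idi1 and Insig1 rest on fewer than 13 fragments each, those of Hmgcs1 and Mvk on 38.6 to 78.4.

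Across all 6064 tested models, 1.95% were called higher in NEAA (118 models) and 0.956% lower (58 models). Of the 6 members' models that passed the level filter, 3 were called higher and 0 lower. Across 4700 gene sums 6% were called higher (282 sums) and 4.11% lower (193 sums), and of the members' 6 tested sums 5 were called higher and 0 lower. After rescaling each library to the same sum, the calls were 151 higher and 40 lower among models and 419 and 96 among gene sums. When the highly abundant Gm26917 and Gm42418 were also left out, the gene sums split into 319 higher and 136 lower. Rescaling to the same sum moved the median of all models by 0.14 on the log2 scale and that of all gene sums by 0.15, upward. Both NEAA samples lay above both controls in 6 of the members' 6 tested models, against 22.8% of all tested models, and in 6 of their 6 sums, against 26.2% of all. They lay below both controls in 0 of the members' models and sums, against 36% of all models and 34.4% of all sums. The log2 fold change was above 0 in all 6 member models and all 6 sums, against 41.1% of models and 44.9% of sums. The level filter favours a higher NEAA value here. Of the members' 6 tested models 4 had a control mean under 1 FPKM and passed through their NEAA values, as did 3 of their 6 tested sums (Mvk, Lss and Insig1), so these counts lend no support. The lowest mean over 4 samples among the tested models was 1.18 FPKM (Fdps model 1) and the highest among those left out was 0.637 (Idi1). With 2 samples in each group, the smallest 2-sided p that an exact permutation test can reach is 0.333.

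**Figure D4:**
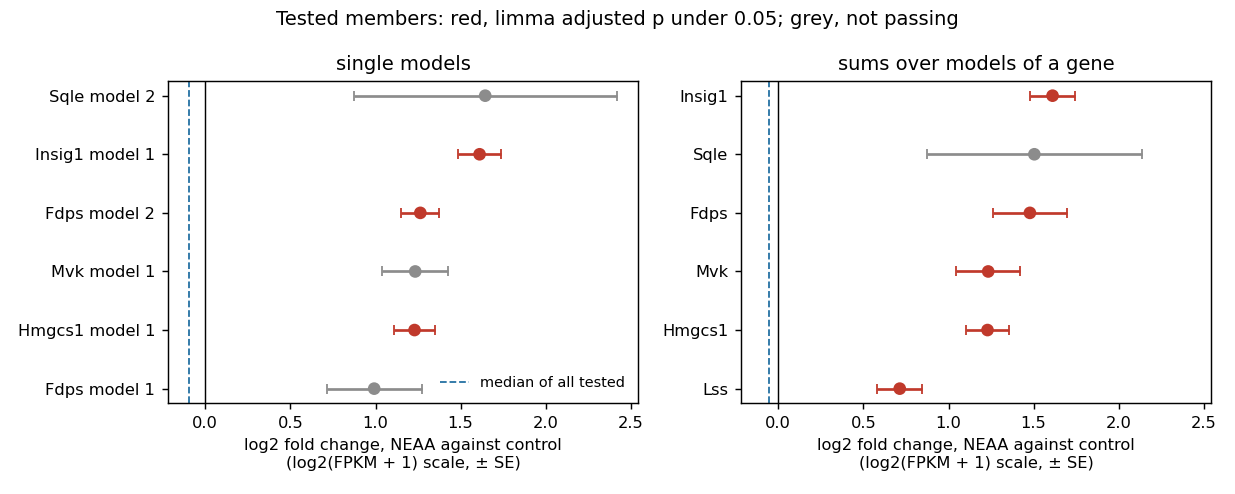
Log2 fold change, NEAA against control, on the log2(FPKM + 1) scale (x axis, ± SE) for the tested models (left) and the tested gene sums (right), in red where the limma adjusted p was under 0.05. Every point lies right of the dashed median of all tested features, and the bars of Sqle are the widest.

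The calls rest on all 4 libraries. With any 1 sample left out (control 1, control 2, NEAA 1 or NEAA 2), limma called 0 of the members' models, at adjusted p-values from 0.129 to 0.194 for the 3 called above, while their log2 fold changes stayed between 1.17 and 1.70. Each such fit has 1 sample in a group, and 4 of the members' 6 tested models passed the level filter through their NEAA values. Counts of members' models at an unadjusted threshold in these fits therefore lend no support. Of the 5 called gene sums, Insig1 alone still passed with a sample left out, without NEAA 2 (limma adjusted p = 0.0478).

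By gene sum in control, Sqle came first at 2.11 FPKM, followed by Hmgcs1 (1.29), Fdps (1.10), Lss (0.927), Mvk (0.912), Insig1 (0.596), Idi1 (0.410) and Fdft1 (0.0613). From Sqle down to Lss, no gene had both samples above both of the next. In NEAA the order was Sqle (7.42), Fdps (4.73), Hmgcs1 (4.36), Insig1 (3.88), Mvk (3.46), Lss (2.16), Idi1 (0.864) and Fdft1 (listed at 0). There Sqle and Fdps overlapped, as did Insig1 and Mvk, while the other neighbours were apart. Insig1 thus stood below Mvk and Lss in control, with Mvk's controls both above those of Insig1, and beside Mvk and above Lss in NEAA. Sums grow with the number of models, which is 5 for Lss and 1 for Insig1.

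The rest of the pathway was read from a list of 13 other cholesterol synthesis genes, of which 7 had a row and 5 a tested gene sum. All 5 sums had a positive log2 fold change, against 44.9% of all gene sums, with a median of 0.59 against -0.06 over all. Of the 5, Tm7sf2 and Dhcr7 had a control mean under 1 FPKM and passed the level filter through their NEAA values, so this count lends no support. Leaving out 1 sample moved the list's median to 0.36 without NEAA 2 and to 0.92 without NEAA 1, with 4 or 5 sums positive. None was called by limma, and 1 had an unadjusted p under 0.05, against 30.7% of all gene sums. Cyp51, which removes a methyl group from lanosterol, measured 0.922 and 1.47 FPKM against 2.37 and 3.14 (log2 difference 0.78, limma adjusted p = 0.0766). Msmo1, a sterol methyl oxidase of the steps after lanosterol, measured 1.88 and 3.26 FPKM against 4.09 and 4.44 (log2 difference 0.59, limma adjusted p = 0.164). In both gene sums the NEAA samples lay above both controls, as in 26.2% of all gene sums. The 2 genes were named for the smallest p-values of the list, so this lends no support. Msmo1 model 2 overlapped between the groups.

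In a list of 18 genes for uptake, traffic, storage and efflux, 5 sums were tested, 0 rose and 1 fell. At a level filter of 0.5 FPKM 7 sums were tested, 1 rose and 1 fell. The sum that rose was Stard4, at 0.274 and 0.287 FPKM in the controls and 1.07 and 0.870 in NEAA (log2 fold change 0.62, limma adjusted p = 0.0446). Stard4 passed that filter through its NEAA values. Npc1, which exports cholesterol from lysosomes, measured 3.99 and 3.93 FPKM in the controls and 1.37 and 2.04 in NEAA and fell (log2 fold change -0.89, limma adjusted p = 0.0457). It passed in 4 of 14 alternatives, and the call was lost after rescaling to the same sum (limma adjusted p = 0.0742) and with any 1 sample left out (0.0645 to 0.174), all with a negative log2 fold change. Npc2, its partner protein in lysosomes, measured 2.26 and 2.90 FPKM against 3.85 and 3.01 (log2 difference 0.30, limma adjusted p = 0.306).

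Of the 8 tested sums among 15 genes of sterol sensing and SREBP control, 3 had a positive log2 fold change and limma called 0, with a median of -0.18, and 1 had an unadjusted p under 0.05. The list's median turned to 0.06 without control 2, with 4 sums positive, and to 0.01 at a level filter of 2 FPKM, so it had no settled direction. Mbtps2, the protease that frees SREBP within the membrane, measured 2.61 and 1.95 FPKM against 1.20 and 1.39 (limma adjusted p = 0.117). Insig2, the paralogue of Insig1, measured 2.34 and 1.84 FPKM against 2.81 and 3.42, with the groups apart (log2 difference 0.41, limma adjusted p = 0.165). Mbtps2 and Insig2 were named for the smallest p-values of the list, so groups that lie apart lend no support. Srebf2, which encodes SREBP2, measured 2.55 and 6.88 FPKM in the controls and 4.04 and 3.21 in NEAA, so the groups overlapped.

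Among 12 genes of other isoprenoid branches, 6 sums were tested, 1 had a positive log2 fold change and limma called 0. At an unadjusted p under 0.05 there was 1, against 30.7% of all gene sums. After rescaling to the same sum, 3 of the 6 had a positive log2 fold change, and with 1 sample left out 0 to 3 did. Pdss2, of ubiquinone side-chain synthesis, measured 1.28 and 1.37 FPKM against 0.504 and 0.881 (limma adjusted p = 0.145). Rabggta, of Rab prenylation, measured 6.10 and 3.01 FPKM against 2.25 and 2.53 (limma adjusted p = 0.222). Of 9 bile acid synthesis genes 2 sums were tested and limma called 0, with 1 at an unadjusted p under 0.05, against the same 30.7%. Hsd3b7 measured 5.77 and 4.21 FPKM against 9.51 and 7.04 (limma adjusted p = 0.137), and Cyp27a1 2.84 and 3.71 against 4.37 and 4.03 (limma adjusted p = 0.289). No sum of the 4 genes of ketone body synthesis, the other use of HMG-CoA in hepatocytes, reached the level filter.

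**Figure D5:**
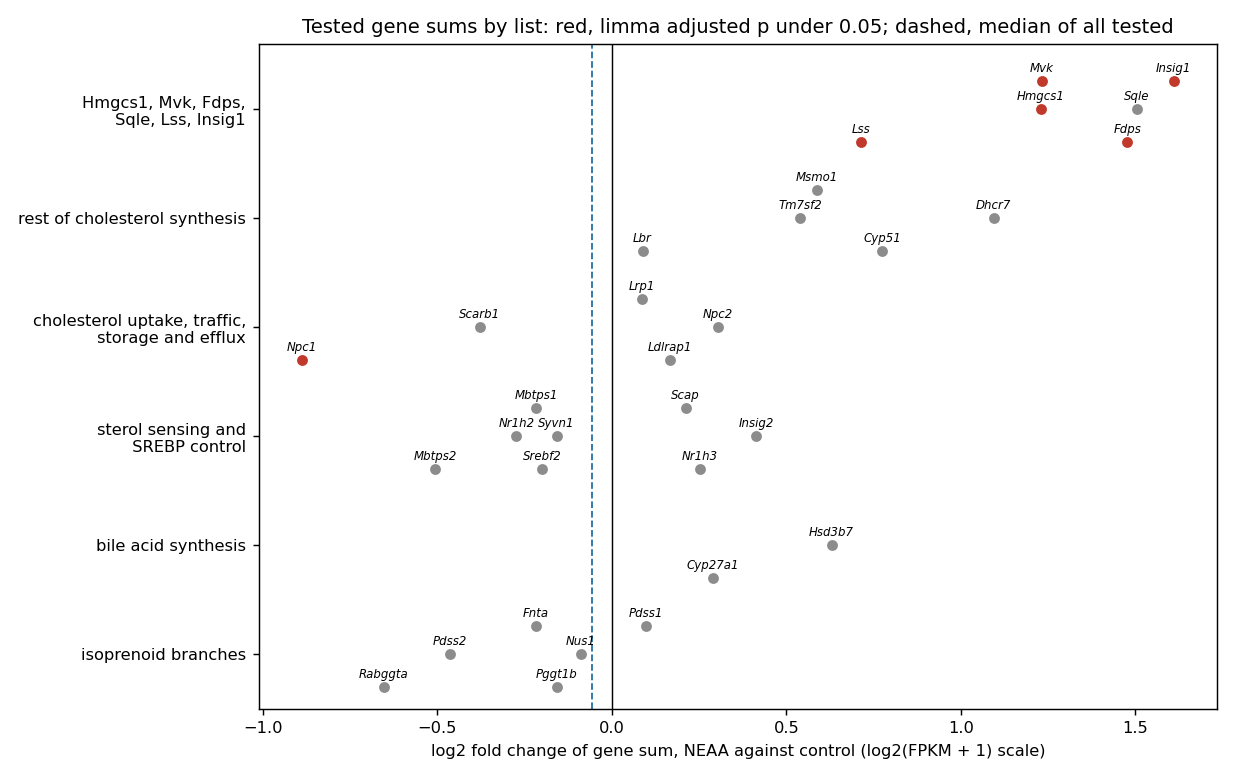
Log2 fold change of each tested gene sum, NEAA against control, on the log2(FPKM + 1) scale (x axis), by list (y axis), with called sums in red and the median of all gene sums dashed. The sums of Hmgcs1, Mvk, Fdps, Sqle, Lss and Insig1 run from 0.71 to 1.61, those of the rest of cholesterol synthesis from 0.09 to 1.10.

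Over the 4 samples, the genes whose summed profile lay nearest to the mean profile of the members' 6 tested sums were Aurkb, Tmed10, Ncapg, Ncapg2 and Birc2, of 4219 genes compared. Likeness was the Euclidean distance between centred log2(FPKM + 1) values, from 0.139 for Aurkb to 0.169 for Birc2. The members' own distances to that mean ran from 0.295 for Hmgcs1 and 0.302 for Fdps to 1.14 for Sqle. With 4 samples in 2 groups, such a distance reflects little beyond the size of the group difference.

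Promoters are printed for Hmgcs1, Mvk and Insig1, which have a single model each and were called as gene sums, from RefSeq (GRCm38.p6), which had a sequence for 6 of the 9 members (Hmgcs1, Idi1, Mvd, Mvk, Lss and Insig1). Each runs from 250 bases before to 50 after the annotated start, 5′ to 3′ on the plus strand. Capitals mark matches on either strand to TCACCCCAC (a sterol regulatory element, the site SREBP binds), CACGTG (an E-box, which SREBP can also bind), CCAAT (the NF-Y site) and GGGCGG (the Sp1 site). Matches to these 4 motifs did not overlap in the 3 sequences.
Hmgcs1, chr13:119690101-119690400: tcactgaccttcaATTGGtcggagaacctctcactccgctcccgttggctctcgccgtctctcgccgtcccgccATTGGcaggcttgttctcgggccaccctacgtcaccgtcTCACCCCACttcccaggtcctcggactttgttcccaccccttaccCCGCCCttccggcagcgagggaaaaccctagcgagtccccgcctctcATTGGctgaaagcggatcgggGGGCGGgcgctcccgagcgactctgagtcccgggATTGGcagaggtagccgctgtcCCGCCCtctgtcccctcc
Mvk, chr5:114444019-114444318: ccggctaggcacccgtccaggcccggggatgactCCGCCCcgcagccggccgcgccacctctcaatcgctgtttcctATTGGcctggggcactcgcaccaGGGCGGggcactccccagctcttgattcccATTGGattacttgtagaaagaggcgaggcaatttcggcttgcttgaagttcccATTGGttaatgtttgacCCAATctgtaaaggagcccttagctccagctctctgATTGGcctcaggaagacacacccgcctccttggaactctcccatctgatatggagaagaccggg
Insig1, chr5:28071162-28071461: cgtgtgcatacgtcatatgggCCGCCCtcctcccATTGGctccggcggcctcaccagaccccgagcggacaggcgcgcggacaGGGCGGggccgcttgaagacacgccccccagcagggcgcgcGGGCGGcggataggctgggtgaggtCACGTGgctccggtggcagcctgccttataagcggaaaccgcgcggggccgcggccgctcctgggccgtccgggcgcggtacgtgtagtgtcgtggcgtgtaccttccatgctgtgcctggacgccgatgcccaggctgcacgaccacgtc
Hmgcs1 held TCACCCCAC once, with its first base at position -137 from the annotated start, and 4 CCAAT matches, and 0.551% of 32851 promoters of the same length hold that element. A free base in its middle, TCACNCCAC, matched 1.24% of promoters and no further member. Mvk held 5 CCAAT matches, and 37.4% of promoters hold at least 1, 1.06% at least 4 and 0.271% at least 5. The numbers 4 and 5 were taken from Hmgcs1 and Mvk themselves. Idi1 and Mvd held 2 CCAAT matches each, and Lss and Insig1 held 1 each. Insig1 held a CACGTG, found in 7.15% of promoters, and GGGCGG is found in 35.7%. A match is a description of the letters and not a binding site.

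Library totals and markers of cell type were as follows. The total FPKM of a library was 73600.1 and 73376.5 for the controls and 65718.5 and 60942.0 for NEAA. This total is not the depth, which was estimated at about 25300000 and 27900000 fragments for the controls and 26500000 and 25200000 for NEAA. Of 16 hepatocyte markers 3 had a row, Trf, Cyp2e1 and Cyp3a11, with summed levels of 22.6 and 28.1 FPKM in the controls and 57.4 and 56.2 in NEAA, nearly all of it Trf. As a gene sum Trf rose (log2 fold change 1.14, limma adjusted p = 0.0279). The part of these markers in the members' difference was not tested. Cyp2e1 measured at most 0.153 FPKM and Cyp3a11 at most 0.238. The cell type label could thus be checked on little more than Trf. Summed macrophage markers ran from 0.828 to 0.962 FPKM in control and from 0.530 to 1.69 in NEAA, endothelial markers from 5.02 to 5.12 and from 4.28 to 5.24, and stellate and fibroblast markers from 1.88 to 2.58 and from 1.58 to 1.74. Cholangiocyte markers were at most 0.0118 FPKM. In bulk RNA, fewer cells of a type and less RNA per cell cannot be told apart.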

How the data were processed

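RNA of 4 samples of primary mouse hepatocytes was analysed, 2 control and 2 NEAA, grouped by title. Libraries were prepared from total RNA with a NEBNext Ultra kit, per the labels' protocols. Builds GRCm38 and mm10 are named in the submitters' processing notes. The aligner, quantifier, annotation and strand setting were not given in the sources used here. The authors deposited FPKM per row without counts. All files listed the same identifiers in the same order, and rows were named with GENCODE M21. Because 0 can be a failed estimate, it is given as listed.

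Models, and sums of FPKM over the models of a gene, with a mean of at least 1 FPKM were fitted on log2(FPKM + 1) with limma 3.58.1 in R 4.3.3 (lmFit, eBayes with trend). Tests were 2-sided with Benjamini-Hochberg adjustment over all features tested, and adjusted p under 0.05 was called. The fit was tested on simulated data. Fragments were estimated as FPKM times transcript length over the worth of 1 fragment, which was read from the lowest step of single-transcript lncRNA genes. They cover counting error only and assume the annotated length.

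The members and the lists were chosen with earlier results of these data known. Named genes were all members, called features and the 2 smallest p-values of each other list, and the 5 genes of nearest profile, clone names left out. Srebf2, Stard4 and the overlapping genes, named beyond this rule, were chosen after their values were seen. Some genes were left out of the lists and are not reported here. The alternatives were other pseudocounts, level filters and scalings, no trend, a replicate block and leaving out each sample.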

Additional observations from a re-analysis of the deposited data

How the results depend on the processing

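No member's log2 fold change changed sign in 165 refits of the tested models and sums. In each of these features both NEAA samples lay above both controls, so leaving out a sample could not reverse a sign. Level filters, the trend and the block do not alter the log2 fold change, so the kept sign lends no support. Of the refits, 122 kept their side of the threshold, 42 lost it and 1 gained it (the model of Mvk after rescaling to the same sum, log2 fold change 1.37, limma adjusted p = 0.0482). The 42 losses all fell on the 3 models and 5 sums that had been called, and the 122 include refits of features that had not been called. As reported, limma called 176 models, 475 gene sums, 3 member models and 5 member sums. Other pseudocounts (0.1 and 0.5), quantile normalization, rescaling without Gm26917 and Gm42418, a filter of 0.5 FPKM and no variance trend left 3 member models and 5 member sums called. Without a level filter limma called 0 models (4000 at an unadjusted p under 0.05), 0 member models (7 unadjusted), 244 gene sums and 2 member sums, with 25076 models and 12256 sums tested. A filter of 2 FPKM gave 308 gene sums, 2 member models and 4 member sums, with 4 models and 5 sums of the members tested. Leaving out a sample gave 0 to 0 models (1076 to 1248 unadjusted), 0 to 0 member models, 0 to 91 gene sums and 0 to 1 member sums, with fewer samples, where a lone sample was assumed to vary like the other group.

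With the replicate number as a block limma called 0 models (1323 unadjusted), 0 member models (5 unadjusted), 185 gene sums and 3 member sums (Hmgcs1, Fdps and Insig1). Same-numbered samples did not deviate together (Pearson's r = -0.0019 across models, 2 pairs). With 2 pairs this cannot show whether same-numbered samples share an animal, culture or batch. Rescaling settings kept the same level filter, apart from the genes left out by name, and scaled the pseudocount by the mean factor. Insig1's log2 fold change as a model ran from 1.52 to 2.51 over 14 alternatives and passed in 8. Fdft1, Idi1 and Insig1, each under 13 fragments in both controls, are limited by depth, and models of Fdps, Sqle and Lss could not be given a fragment number.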

Other observations

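Models of Srebf2, chosen after their values were seen, differed from each other. Model 1 measured 2.09 and 6.18 FPKM in the controls and 1.94 and 1.07 in NEAA (log2 difference -0.93, limma adjusted p = 0.306). Model 2 measured 0.455 and 0.702 FPKM against 2.09 and 2.14 (log2 difference 0.99, limma adjusted p = 0.0549). The groups did not overlap in either model, in opposite directions, and neither passed. The difference between the models was not tested.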
